A study of Rattus norvegicus with 8 samples.

Results

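The genes described here encode the receptor chains, Janus kinases, transcription factor and feedback inhibitors through which interleukin-4 (IL-4) signals. They are Il4r, Il13ra1 and Il2rg, Jak1, Jak3 and Tyk2, Stat6, and Socs1, Socs3 and Cish, chosen by name as 10 of the 15037 gene symbols that the array's probe table gives to a probe set on its own. Each was read by 1 of the 23188 probe sets, so no choice between probe sets was needed. Affymetrix Clariom S rat arrays measured their RNA in primary oligodendrocyte progenitor cell (OPC) cultures from brains of Sprague Dawley pups of postnatal day 1 to 2, with 4 arrays of cultures that received PBS, the vehicle, and 4 of cultures that received IL-4 (20 ng/mL), each for 3 d. The methods describe OPCs maintained in a serum-free medium with insulin, apo-transferrin, hydrocortisone and the mitogens PDGF and bFGF. The medium during the PBS or IL-4 treatment is not stated. The cultures came from mixed glia that had been shaken to remove microglia, and the purity of the cells was not measured here.

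IL-4 binds its receptor α chain, encoded by Il4r, and the complex then recruits a second chain. In the type I receptor this is the common γ chain, encoded by Il2rg, which several other interleukins share, and in the type II receptor it is the IL-13 receptor α1 chain, encoded by Il13ra1, so the type II receptor also serves IL-13. JAK1 is bound to the α chain, JAK3 to the common γ chain and TYK2 to the IL-13 receptor α1 chain. These kinases phosphorylate the α chain, STAT6 docks on it, is phosphorylated in turn and activates transcription in the nucleus, and SOCS proteins made in response to cytokines restrain the kinases and the receptor. The pathway is best known from lymphocytes and macrophages.

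Values are log2 signals normalized by the authors, on which a difference of 1 is a 2-fold change, and the array medians lay between 6.13 and 6.16. The words rose and fell are used where limma gave an adjusted p under 0.05, with adjustment over all 23188 probe sets. By this rule 31.6% of probe sets changed, as 2776 rose (12%) and 4563 fell (19.7%), and with a change of more than 2-fold 500 rose (2.16%) and 543 fell (2.34%). After a further quantile normalization 3279 rose and 3582 fell. The 4 IL-4 arrays lay wholly above the 4 PBS arrays for 12.2% of probe sets and wholly below for 20.6%, so the treatments did not overlap for 32.8%. As a guide to dim signals, 1187 probe sets of olfactory, vomeronasal and taste receptors, which these cells are not known to use, had mean signals with a 95th percentile of 5.45 with PBS and 5.52 with IL-4. These values are called the dim limit, and the size of a difference between means under it cannot be read exactly. Among the receptor probe sets themselves 14.7% rose and 11.1% fell, so passing the test does not by itself show that a dim gene was expressed. Of 6 OPC markers Pdgfra, Olig1, Olig2, Sox10 and Ptprz1 lay between 12.73 and 16.59 on all arrays and Cspg4, which encodes NG2, between 6.46 and 8.88. Mbp, of mature oligodendrocytes, lay between 19.30 and 19.82 and rose. In RNA of whole cultures, more cells of a type and more RNA per cell cannot be told apart.

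Of the 10 genes, Socs1, Il2rg and Stat6 rose with IL-4, and none fell. The rises of Socs1 and Il2rg were past 2-fold on the fitted values. This is 3 of 10 beside 31.6% of all probe sets for a change in either direction, 3 of 10 beside 12% for a rise and 0 of 10 beside 19.7% for a fall. The arrays did not overlap for 4 of the 10 (32.8% of all probe sets), wholly above for 3 (12.2%) and wholly below for Jak1 (20.6%). At an unadjusted p under 0.05 limma gave 4 higher and 2 lower, while the methods' t-test with adjusted p gave 2 higher and 1 lower. By the methods' test with adjusted p 2134 of all 23188 probe sets were higher and 3708 lower. How many of all probe sets passed at an unadjusted p was not counted. Both points also hold for the counts of this kind given for other lists below. The median log2 difference of the 10 genes was 0.245, beside -0.068 over all probe sets. Il2rg, Jak3, Socs1, Socs3 and Cish had means under the dim limit with both treatments, and the means of Il4r, Il13ra1, Jak1, Tyk2 and Stat6 were above it with both.

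**Figure D1:**
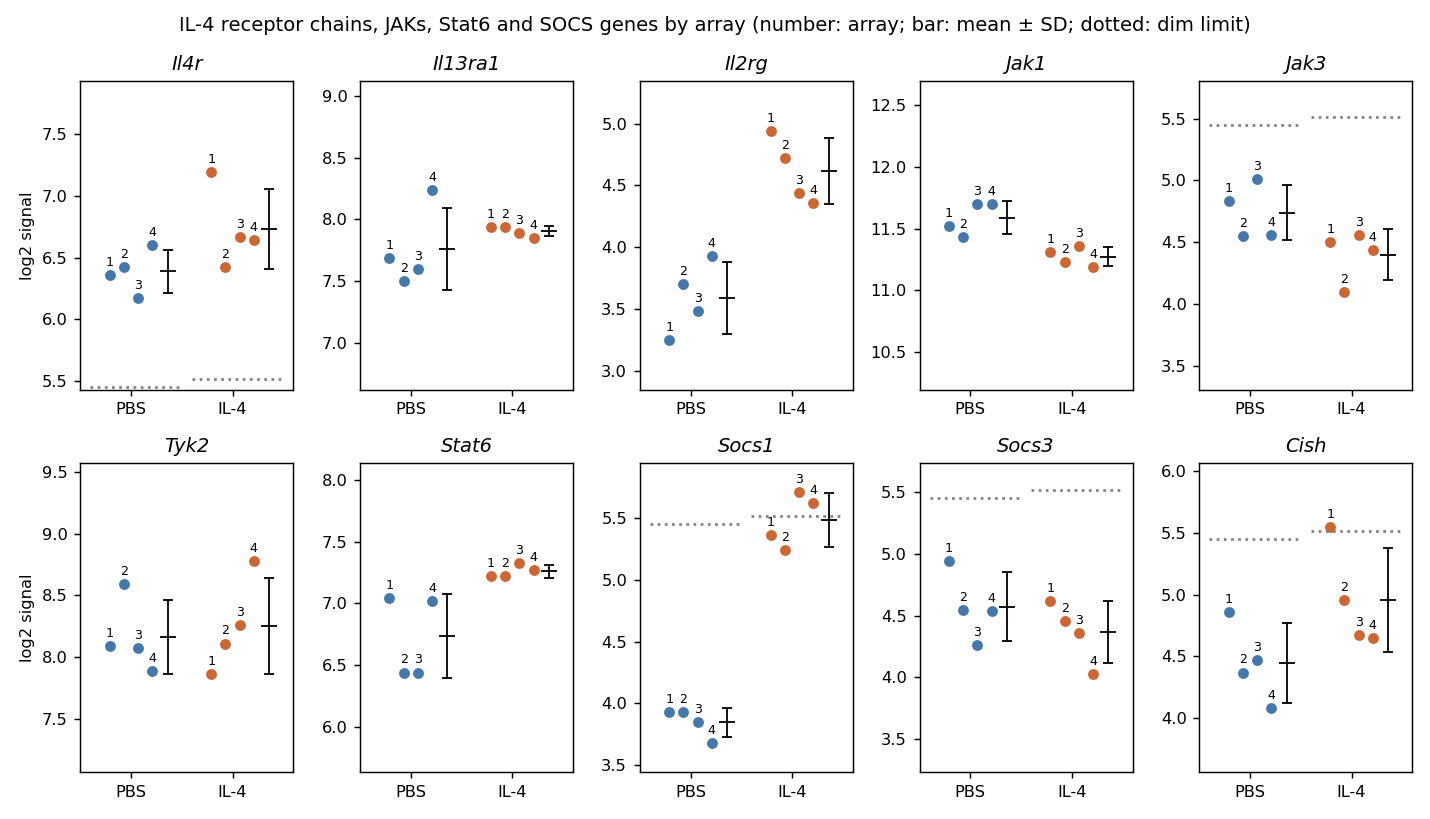
Log2 signal of each of the 10 genes on the 4 PBS arrays (blue) and the 4 IL-4 arrays (orange), where digits name the array, black bars give the mean ± SD (n = 4) and the dotted lines mark the dim limit of 5.45 with PBS and 5.52 with IL-4. Every panel spans the same range of log2 units, and the IL-4 arrays lie wholly above the PBS arrays for Il2rg, Stat6 and Socs1 and wholly below for Jak1.

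Among the receptor chains, the common γ chain rose, from signals in the dim range, and the other chains did not pass the test. Il4r, the ligand-binding chain, stood at 6.36, 6.42, 6.17 and 6.60 on PBS arrays 1 to 4 and at 7.19, 6.42, 6.67 and 6.64 on IL-4 arrays 1 to 4. Of the IL-4 arrays 3 lay above every PBS array, array 1 by the most, and array 2 lay within the PBS range. The log2 difference was 0.34 (standard error, SE, 0.17, 95% confidence interval -0.026 to 0.71, adjusted p = 0.14). Without IL-4 array 1 it was 0.19 (adjusted p = 0.35).

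Il13ra1, the second chain of the type II receptor, stood at 7.69, 7.50, 7.60 and 8.24 on the PBS arrays and at 7.94, 7.94, 7.89 and 7.85 on the IL-4 arrays. PBS array 4 was the highest of all 8, and the IL-4 arrays lay in a narrow band below it and above the remaining PBS arrays. The log2 difference was 0.15 (SE 0.16, 95% confidence interval -0.20 to 0.49, adjusted p = 0.50), and without PBS array 4 it was 0.31 (adjusted p = 0.048). PBS array 4 was also the array with the most signal of microglial markers, whose mean over 17 measured of 18 genes was 10.48 there, 8.93 to 9.26 on its PBS fellows and 9.75 to 9.85 with IL-4. Of these 17, 6 rose (35.3%, beside 12% of all probe sets) and 2 fell (11.8%, beside 19.7%) with IL-4, and Tmem119 was the one below the dim limit with both treatments. The part of microglial RNA in the Il13ra1 values was not tested.

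Il2rg, the second chain of the type I receptor, stood at 3.25, 3.70, 3.48 and 3.93 on the PBS arrays and at 4.94, 4.72, 4.44 and 4.36 on the IL-4 arrays. The treatments did not overlap, with a gap from 3.93 on PBS array 4 to 4.36 on IL-4 array 4. The log2 difference was 1.03 (SE 0.17, adjusted p = 0.0018), and the adjusted p lay between 0.0014 and 0.0076 when any 1 array was left out. The difference was under 1, at 0.91 at the lowest, without PBS array 1, PBS array 3, IL-4 array 1 or IL-4 array 2. The IL-4 mean of 4.62 was above 71.9% of the olfactory, vomeronasal and taste receptor probe sets and the PBS mean of 3.59 above 24.7%. Of those 1187, 19 rose by more than Il2rg did. Il2rg had its highest PBS value, 3.93, on array 4, which also had the highest mean of the microglial markers. That value was below every IL-4 array. T cells use the common γ chain. Of 8 genes listed as T cell markers, 6 were dim with both treatments (Cd3e, Cd3d, Cd3g, Cd8a, Lck and Zap70). Cd4 stood at 8.79, 8.65, 8.52 and 10.81 on the PBS arrays and between 10.45 and 10.76 with IL-4. Like the mean of the microglial markers, its PBS value was highest on array 4. Cd4 rose by a log2 difference of 1.38 (adjusted p = 0.028). Cd2 fell, with a difference of -1.15 (adjusted p = 0.0012), and was dim with IL-4. The part of T cell or microglial RNA in the Il2rg values was not tested.

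No kinase gene passed the test, and Jak1 came closest. Jak1, the kinase of the α chain, stood at 11.52, 11.43, 11.70 and 11.70 on the PBS arrays and at 11.31, 11.23, 11.36 and 11.19 on the IL-4 arrays. Every IL-4 array lay below every PBS array, by a small margin, as for 20.6% of all probe sets. The log2 difference was -0.32 (SE 0.11, 95% confidence interval -0.56 to -0.070, adjusted p = 0.051). The adjusted p was 0.047 after subtraction of array medians, 0.040 without dim probe sets, 0.034 when the prior was robust and followed signal intensity, 0.032 with array weights and 0.033 with the methods' t-test. Without PBS array 2 it was 0.032, and without any other 1 array Jak1 did not pass. After quantile normalization the difference was -0.14 (adjusted p = 0.36), so the call rests on the scaling and on the variance model.

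Jak3, the kinase of the common γ chain, stood at 4.83, 4.55, 5.01 and 4.56 on the PBS arrays and at 4.50, 4.10, 4.56 and 4.44 on the IL-4 arrays, under the dim limit on every array. Of the IL-4 arrays 3 lay below every PBS array, and array 3 lay within their range. The log2 difference was -0.34 (SE 0.15, 95% confidence interval -0.66 to -0.013, adjusted p = 0.10). Jak3 and its receptor partner Il2rg therefore had fitted differences of opposite sign, from signals that were dim for both. Tyk2, the kinase of the IL-13 receptor α1 chain, stood at 8.09, 8.59, 8.07 and 7.89 with PBS and at 7.86, 8.11, 8.26 and 8.78 with IL-4. IL-4 array 4 was the highest and IL-4 array 1 the lowest of all 8, so the treatments overlapped, and the log2 difference was 0.093 (SE 0.21, 95% confidence interval -0.36 to 0.55, adjusted p = 0.76).

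Stat6, the transcription factor of the pathway, rose by less than 2-fold. It stood at 7.04, 6.44, 6.44 and 7.02 on the PBS arrays and at 7.22, 7.22, 7.33 and 7.27 on the IL-4 arrays. The PBS arrays fell into a higher pair, arrays 1 and 4, and a lower pair, arrays 2 and 3, while the IL-4 arrays lay close together above them all. A wider spread with PBS was general, as 67.6% of all probe sets showed it. The mean went from 6.74 ± 0.34 to 7.26 ± 0.052 (mean ± SD, n = 4), a log2 difference of 0.53 (SE 0.16, 95% confidence interval 0.17 to 0.88, adjusted p = 0.029). With 1 array left out the difference lay between 0.43 and 0.63 and the adjusted p between 0.015 and 0.077, under the threshold in 2 of 8 cases, those without PBS array 1 or PBS array 4. The means of the microglial markers were 9.26, 9.06, 8.93 and 10.48 on PBS arrays 1 to 4 and between 9.75 and 9.85 with IL-4. The part of microglial RNA in the Stat6 values was not tested.

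**Figure D2:**
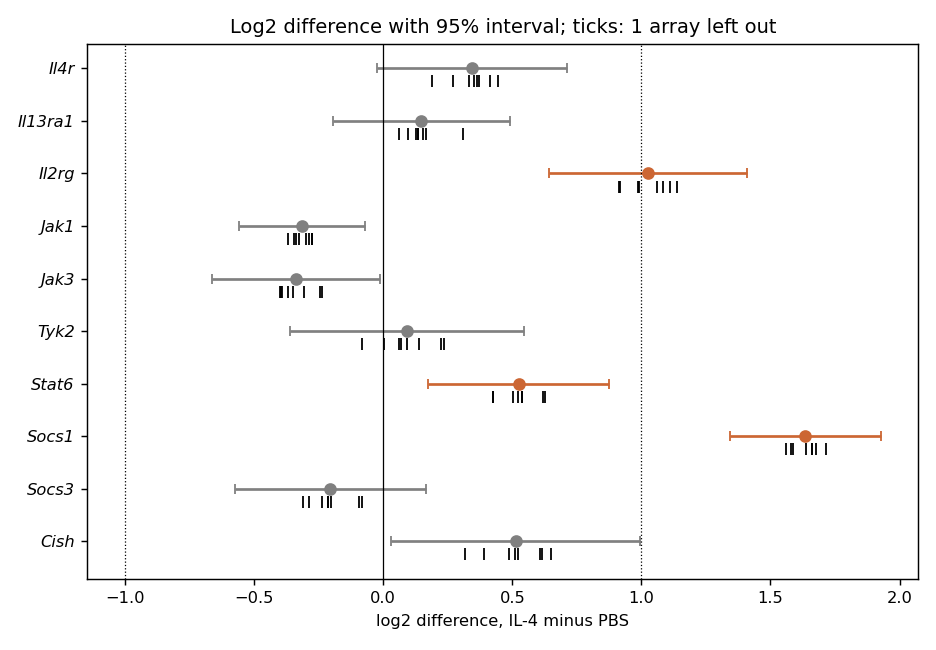
Log2 difference of IL-4 minus PBS for each of the 10 genes, with the 95% confidence interval from limma (orange, adjusted p under 0.05, and grey, not passing), short black ticks for the values with 1 array left out, and dotted lines at a 2-fold change. The intervals of Socs1, Il2rg and Stat6 lie above 0, those of Jak1 and Jak3 lie below 0 without passing the adjusted threshold, and Cish reaches from 0.032 to 0.99.

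Of the feedback inhibitors, Socs1 rose by the most among the 10 genes, Cish had a smaller difference that did not pass, and Socs3 did not pass. SOCS1 binds JAKs and blocks their activity, SOCS3 is best known as an inhibitor of receptors that use gp130, and CIS, encoded by Cish, competes for docking sites on receptors, mostly with STAT5. Socs1 stood at 3.93, 3.93, 3.85 and 3.68 on the PBS arrays and at 5.36, 5.24, 5.71 and 5.62 on the IL-4 arrays. The treatments were far apart relative to their spread, and on IL-4 arrays 3 and 4 the signal passed the dim limit of 5.52. The mean went from 3.85 ± 0.12 to 5.48 ± 0.22 (mean ± SD, n = 4), a log2 difference of 1.64 (SE 0.13, adjusted p = 2.9e-05). With 1 array left out the difference stayed between 1.56 and 1.72, with an adjusted p between 9.4e-05 and 2.8e-04. Of the 1187 olfactory, vomeronasal and taste receptor probe sets 0 had a larger rise, and the largest was 1.61. On PBS array 4, where the microglial markers were highest, Socs1 was at its lowest, 3.68. Of the 17 microglial markers Aif1, Csf1r, C1qa, C1qb, C1qc and P2ry12 rose, by log2 differences between 1.01 and 1.96, Cx3cr1 (-1.46) and Tmem119 (-0.62) fell, and the other 9 lay between -1.35 (Trem2) and 0.75 (Cd14). The part of microglial RNA in the rises of Socs1 and Il2rg was not tested.

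Cish stood at 4.86, 4.37, 4.47 and 4.08 on the PBS arrays and at 5.55, 4.96, 4.67 and 4.65 on the IL-4 arrays. IL-4 arrays 1 and 2 lay above the PBS arrays and IL-4 arrays 3 and 4 within their range. The log2 difference was 0.51 (SE 0.22, 95% confidence interval 0.032 to 0.99, adjusted p = 0.096), and without IL-4 array 1 it was 0.32 (adjusted p = 0.23). Socs3 stood at 4.94, 4.55, 4.26 and 4.54 with PBS and at 4.62, 4.46, 4.36 and 4.03 with IL-4. Its log2 difference was -0.21 (SE 0.17, 95% confidence interval -0.58 to 0.17, adjusted p = 0.38). The treatments overlapped, and all signals of Socs3 were under the dim limit.

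STAT dimers bind palindromes that start with TTC and end with GAA. STAT6 is known to prefer a spacing of 4 bases (TTCNNNNGAA) and other STATs one of 3 bases (TTCNNNGAA), and as each motif is its own reverse complement, one search covers both strands. RefSeq (build GRCr8) gave promoter windows, 250 bases before and 50 after the gene start, for 7 of the 10 genes, which are Il4r, Il13ra1, Il2rg, Stat6, Socs1, Socs3 and Cish. TTCNNNNGAA occurred in 0 of these windows, beside 7.28% of 33469 windows of all genes. TTCNNNGAA occurred in those of Socs1, with 1 match, and Cish, with 4, beside 8.87% of all windows with at least 1 match and 2 windows of 33469 with at least 4. The windows of Socs1, the gene with the largest rise, and of Cish, which holds the most matches, are shown 5′ to 3′ on the strand of the gene, with matches to TTCNNNGAA in capitals.
Socs1 (chr10:5389324-5389623, plus strand): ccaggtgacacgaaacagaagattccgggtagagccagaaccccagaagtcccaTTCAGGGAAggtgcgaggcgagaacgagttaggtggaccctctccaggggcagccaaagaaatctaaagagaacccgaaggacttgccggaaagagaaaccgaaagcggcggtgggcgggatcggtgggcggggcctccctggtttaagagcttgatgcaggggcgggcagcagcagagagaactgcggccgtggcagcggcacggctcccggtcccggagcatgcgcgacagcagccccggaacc
Cish (chr8:116850719-116851018, plus strand): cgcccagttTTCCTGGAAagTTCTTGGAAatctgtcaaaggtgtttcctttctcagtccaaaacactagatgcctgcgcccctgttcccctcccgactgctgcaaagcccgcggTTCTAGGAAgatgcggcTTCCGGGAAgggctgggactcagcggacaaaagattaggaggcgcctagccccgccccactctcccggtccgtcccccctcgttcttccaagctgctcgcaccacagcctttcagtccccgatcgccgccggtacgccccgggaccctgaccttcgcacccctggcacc
The match of Socs1 starts 196 bases before the gene start, and those of Cish start 241, 230, 136 and 119 bases before it. A match is a description of the letters, and binding was not measured. Sites outside these windows, or near another start of the same gene, were not searched. Socs1, with 1 match, rose, and Cish, with 4, did not pass the test.

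Whether related genes changed unequally was asked with the within-array difference of 6 pairs of these genes. The pairs were partners in a receptor complex, the alternative second chains, or feedback inhibitors. The test was a two-sided exact permutation test over the 70 assignments of 8 arrays into 4 and 4, for which the smallest p is 0.029. The pair of second chains, Il2rg minus Il13ra1, went from -4.17 ± 0.28 with PBS to -3.29 ± 0.23 with IL-4 (mean ± SD, n = 4), a shift of 0.88. Socs1 minus Socs3 shifted by 1.84 and Socs1 minus Cish by 1.12, and in these 3 pairs no IL-4 array overlapped a PBS array (exact permutation p = 0.029 each, adjusted p = 0.057 over the 6 pairs). Adjusted p-values this large are the best that 3 extreme pairs of 6 can reach in this design, and no pair passed the threshold. The shift was 0.20 for Il4r minus Il13ra1 (exact permutation, adjusted p = 0.48), -0.41 for Jak1 minus Tyk2 (exact permutation, adjusted p = 0.39) and -0.023 for Jak3 minus Jak1 (exact permutation, adjusted p = 0.89). As Il2rg and Socs1 are dim, the shifts give no ratio of transcripts.

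The genes outside the lists with array profiles most like those of the genes past 2-fold were found by Euclidean distance between mean-centred log2 values over the 8 arrays, among 14903 symbols. For Socs1 they were Fabp4, a fatty acid binding protein of adipocytes and macrophages, at a distance of 0.37, the olfactory receptor gene Or5aq1d at 0.42 and Cdca7l at 0.49, where the median of all symbols was 2.54. Fabp4 and Or5aq1d, like Socs1, were under the dim limit with both treatments, and Cdca7l went from 6.47 to 7.94. For Il2rg they were the olfactory receptor gene Or5h17 at 0.36, Extl3, an enzyme of heparan sulfate synthesis, at 0.37 and Negr1, a neuronal adhesion molecule, at 0.37, where the median was 1.81. An olfactory receptor gene thus stood among the 3 nearest profiles of each. The share of such genes among the 14903 symbols was not counted.

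**Figure D3:**
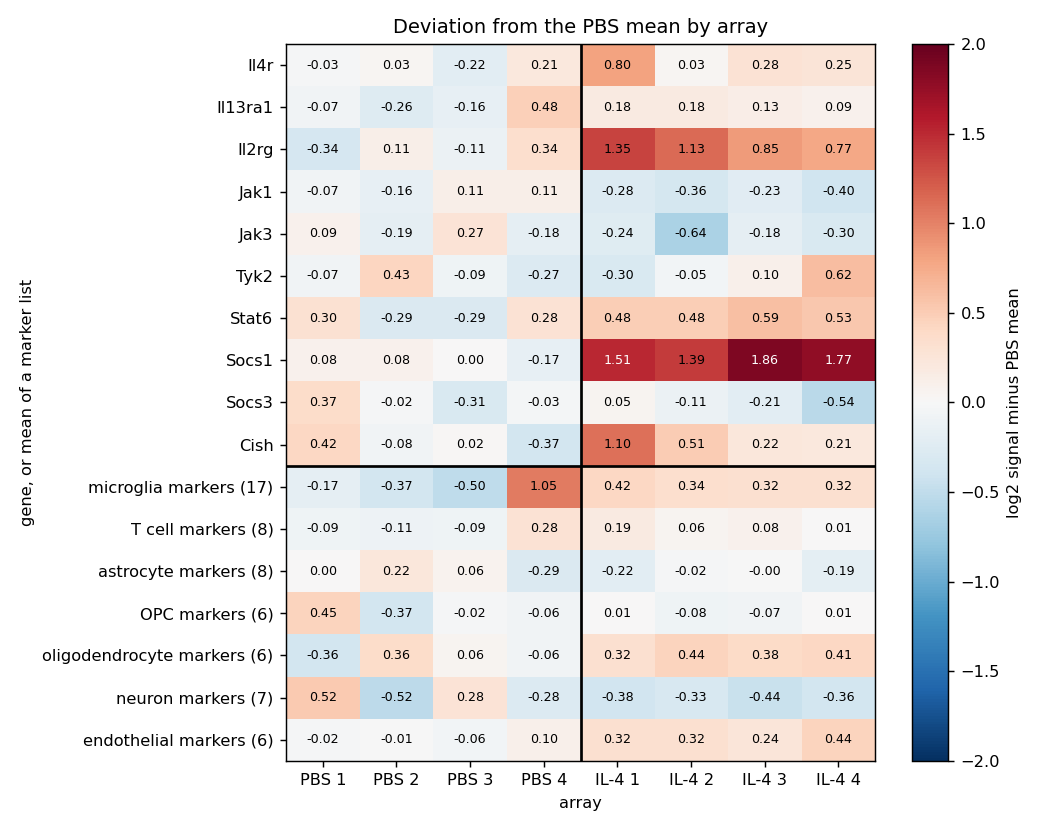
Log2 signal on each array minus the mean of the 4 PBS arrays, for the 10 genes above the horizontal line and for the means of 7 marker lists below it, with the number of measured markers in brackets. The IL-4 columns of Il2rg, Stat6 and Socs1 are positive throughout, and the microglial markers are highest on PBS array 4.

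The means of the endothelial list did not overlap between the treatments and those of the other 6 lists did, but a list mean can hide members that moved in opposite directions. Of 6 endothelial markers, whose mean ran from 4.22 to 4.38 with PBS and from 4.52 to 4.72 with IL-4, Pecam1, which leukocytes also express, rose (1.85, adjusted p = 5.2e-04) and Cdh5 fell (-0.59, adjusted p = 0.0083). Kdr (0.49), Flt1 (0.38), Cldn5 (-0.0075) and Tek (-0.15) did not pass, and 5 of the 6, all but Pecam1, were dim with both treatments. The mean of 8 T cell markers lay between 4.41 and 4.80 with PBS and between 4.53 and 4.71 with IL-4. Of 8 astrocyte markers, with means of 8.30 to 8.81 and 8.37 to 8.59, Slc1a2 (1.63) and Gfap (1.05) rose and Slc1a3 (-1.03), Fgfr3 and Gja1 fell. Of 7 neuronal markers, with means of 9.09 to 10.13 and 9.17 to 9.28, Map2 (0.61) rose and Tubb3 (-2.09) and Syt1 (-1.76) fell. Of 6 measured oligodendrocyte markers, with means of 16.83 to 17.56 and 17.52 to 17.64, Mog (1.02), Mobp (0.73) and Mbp (0.37) rose and 0 fell. Of 6 OPC markers, with means of 13.47 to 14.29 and 13.75 to 13.85, Sox10 (-0.46) fell and 0 rose. Of all probe sets 12% rose and 19.7% fell. The part of these cell types in the values of the 10 genes was not tested.

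The rest of the pathway moved in both directions. Of 74 other genes in 8 lists 66 were measured, of which 14 rose, 11 fell and 41 missed the threshold, shares of 21.2% and 16.7% beside 12% and 19.7% of all probe sets. Their median log2 difference was 0.035. Among 3 ligand and decoy genes Il13, the other ligand of the type II receptor, fell from 7.12 ± 0.13 to 6.20 ± 0.13 (mean ± SD, n = 4), a log2 difference of -0.92 (SE 0.12, adjusted p = 4.0e-04), with every IL-4 array below every PBS array. Il4 itself and the decoy receptor Il13ra2 were dim, with log2 differences of 0.42 (adjusted p = 0.075) and 0.42 (adjusted p = 0.089). They passed at 0.53 each, Il4 without IL-4 array 2 (adjusted p = 0.038) and Il13ra2 without PBS array 2 (adjusted p = 0.041).

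Of 5 measured receptors that pair with the common γ chain 2 rose (beside 12% of all probe sets) and 1 fell (beside 19.7%). With both treatments 4 of the 5 were dim. Il7r, the IL-7 receptor chain, stood at 3.99, 4.38, 3.46 and 4.47 on the PBS arrays and between 6.82 and 7.24 with IL-4, from below the dim limit to above it on every array. Its log2 difference of 2.94 (SE 0.21, adjusted p = 1.2e-05) was larger than that of any of the 10 genes, although its size cannot be read exactly. Il2ra, at 0.53 (adjusted p = 0.012), and Il21r, at -0.45 (adjusted p = 0.013), were dim with both treatments.

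Of 6 measured other JAK and STAT genes 0 rose (beside 12% of all probe sets) and 2 fell (33.3%, beside 19.7%). At an unadjusted p under 0.05 limma gave 0 and 2, as did the methods' t-test with adjusted p. Stat3, which serves gp130 receptors, had a log2 difference of -0.76 (SE 0.14, adjusted p = 0.0027), with arrays between 13.13 and 13.71 for PBS and between 12.48 and 12.61 for IL-4. Its direction is opposite to that of Stat6, and the treatments did not overlap for either gene. Stat4 had -0.41 (adjusted p = 0.0094) and was dim. The STAT5 genes Stat5a and Stat5b had log2 differences of -0.050 (adjusted p = 0.85) and 0.063 (adjusted p = 0.73).

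Of 4 measured other SOCS genes Socs2, an inhibitor of growth hormone signaling, rose and Socs5, which is known to bind the IL-4 receptor in T cells, fell. Each is 25.0% of the list, beside 12% of all probe sets for a rise and 19.7% for a fall. Socs2 stood at 7.92, 8.32, 8.30 and 8.99 on the PBS arrays and at 9.02, 8.84, 9.06 and 9.06 on the IL-4 arrays, a log2 difference of 0.61 (SE 0.19, adjusted p = 0.034). IL-4 array 2 lay below PBS array 4, and the adjusted p was 0.0022 without PBS array 4 and between 0.050 and 0.080, past the threshold no longer, without any other 1 array. Socs5 went from 8.50 ± 0.13 to 7.78 ± 0.24 (mean ± SD, n = 4), a log2 difference of -0.72 (SE 0.14, adjusted p = 0.0033), with no overlap. Of 9 phosphatase and PIAS genes 0 rose (beside 12% of all probe sets) and 1 fell (11.1%, beside 19.7%). The gene that fell was Ptpn1, a tyrosine phosphatase that acts on JAKs, at -0.41 (SE 0.14, adjusted p = 0.045). At an unadjusted p under 0.05 limma gave 1 higher and 2 lower, and the methods' t-test with adjusted p gave 1 and 1. The adjusted p of Ptpn1 was 0.020 without PBS array 2 and between 0.051 and 0.13 without any other 1 array.

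In the branch from IRS adaptors to PI3-kinase 4 of 14 measured genes rose (28.6%, beside 12% of all probe sets) and 0 fell (beside 19.7%). At an unadjusted p under 0.05 limma gave 4 and 0, and the methods' t-test with adjusted p gave 2 and 0. Pik3cd, the leukocyte catalytic subunit, stood at 6.02, 5.90, 5.68 and 6.15 on the PBS arrays and at 6.95, 6.72, 6.70 and 6.70 on the IL-4 arrays, a log2 difference of 0.83 (SE 0.13, adjusted p = 0.0011). Irs1, the adaptor shared with the insulin receptor, had 0.65 (adjusted p = 0.016), the adaptor Gab2 0.56 (adjusted p = 0.016) and the regulatory subunit Pik3r1 0.52 (adjusted p = 0.043). Pik3r1 was 0.64 without PBS array 4 (adjusted p = 0.016) and lost the call without any other 1 array, with adjusted p between 0.050 and 0.10. The IL-4 arrays lay wholly above the PBS arrays for 5 of the 14 (12.2% of all probe sets) and wholly below for 0 (20.6%). The 5 were Fes, which did not pass the test (0.23, adjusted p = 0.15), and the 4 genes that rose. All 4 had their highest PBS value on array 4, at 6.15 for Pik3cd, 10.48 for Gab2, 7.98 for Irs1 and 14.73 for Pik3r1, where the mean of the microglial markers was highest too, and its part in these values was not tested.

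Of 3 measured STAT6 coactivators Snd1 fell, with arrays between 12.96 and 13.26 for PBS and between 12.01 and 12.24 for IL-4, a log2 difference of -0.98 (SE 0.11, adjusted p = 2.4e-04). Crebbp had -0.035 (adjusted p = 0.86) and Parp14 0.55 (adjusted p = 0.065), which became 0.74 without PBS array 4 (adjusted p = 0.0075). Of 22 measured STAT6 target genes known from macrophages and lymphocytes 7 rose (31.8%, beside 12% of all probe sets), 4 fell (18.2%, beside 19.7%) and 11 missed the threshold, and 12 of the 22 were dim with both treatments. The mannose receptor gene Mrc1 had a log2 difference of 3.25 (SE 0.18, adjusted p = 2.1e-06), the lectin gene Clec10a 2.46 (SE 0.13, adjusted p = 1.3e-06), dim with PBS, and the chemokine gene Ccl24 8.40 (SE 0.12, adjusted p = 7.6e-12), dim with PBS. Ch25h, a cholesterol hydroxylase, had -1.69 (SE 0.30, adjusted p = 0.0021), dim with IL-4. Arg1, a standard target in macrophages, was dim throughout and had -0.63 (adjusted p = 0.0032).

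**Figure D4:**
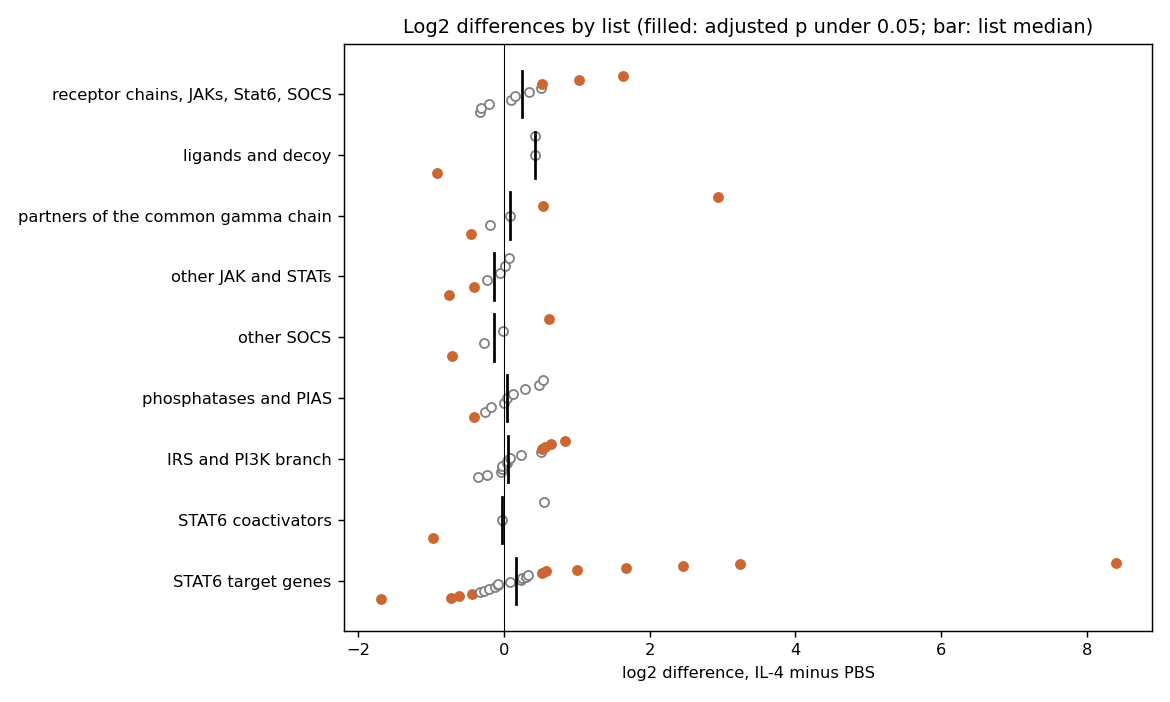
Log2 difference of IL-4 minus PBS for every measured gene of the 10 genes described here (top row) and of 8 other pathway lists, with filled points at an adjusted p under 0.05 and a black bar at the median of each list. The medians lie between -0.15 and 0.42, and the STAT6 target list spans the widest range, from -1.69 to 8.40.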

How the data were processed

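The log2 values were deposited by the authors, who performed image analysis in Affymetrix Expression Console and used RMA and Transcriptome Analysis Console 4.0 (build rn6). RMA subtracts background, brings arrays to a common distribution and combines the probes of a set, so levels are relative within a probe set. The methods state 4 biologic replicates per condition. Names came from the platform's probe table, which gives 1 symbol to 15049 probe sets. The treatments were compared by lmFit and eBayes of limma 3.58.1 (R 4.3.3), with Benjamini-Hochberg adjustment over 23188 probe sets. The fit was tested on simulated data. Arrays have no read depth, so their small number limits precision.

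All 10 genes are named. Of each pathway list, up to 4 genes that passed the test with the largest changes are named, or the 2 with the smallest p where none passes, and all genes of a list with 3 or fewer measured. Cell type markers, Arg1, Stat5a and Stat5b were named after their values were seen. Genes and lists were chosen with earlier results of these data known. The dim limit was chosen after the values were seen. Alternatives were quantile normalization, median subtraction, leaving out the dimmest 40% of probe sets, a trend with a robust prior and array weights. Further ones were the replicate number as a block, the methods' t-test, the dimmest probe set per gene and each array left out. The methods name this t-test for comparisons of 2 groups, and it was run here on the arrays with Benjamini-Hochberg adjustment. Python 3.11.15, pandas 2.3.3, numpy 2.4.6 and matplotlib 3.10.9 were used.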

Additional observations from a re-analysis of the deposited data

Results flagged for a closer look

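An array stood apart from the others of its treatment, by Dixon's criterion at the 95% level, in 4 of 64 groups of 4 arrays, and chance gives about 1 in 20. Il13 was 7.31 on PBS array 1 and 7.03 to 7.07 on the other PBS arrays. Il2ra was 4.52 on IL-4 array 4 and 4.95 to 5.02 on the other IL-4 arrays. Stat4 was 4.07 on IL-4 array 4 and 3.96 on the others. Pik3cd was 6.95 on IL-4 array 1 and 6.70 to 6.72 on the others. None of the 10 receptor, kinase, Stat6 and SOCS genes was among them.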

How the results depend on the processing

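The rises of Socs1 and Il2rg passed the threshold under every alternative in which they were tested. Without dim probe sets, which drops Il2rg, Jak3, Socs1, Socs3 and Cish, 1 gene rose and 0 passed 2-fold, and 1764 of all probe sets rose. Jak1 made 1 gene lower under median subtraction, without dim probe sets, with a trend and robust prior, with array weights and with the methods' t-test. With 1 array left out, 2 to 4 of the 10 genes rose, 0 to 1 fell and 1 to 2 rose past 2-fold. Stat6 did not pass with the methods' t-test (adjusted p = 0.074), and neither did Socs2 (0.10), Ptpn1 (0.081), Irs1 (0.056) or Pik3r1 (0.11). Ptpn1 also lost its call after quantile normalization (-0.33, adjusted p = 0.095), and Parp14 gained one with array weights (0.58, adjusted p = 0.029).

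Signs turned for 3 values near 0. Jak3 minus Jak1 ran from -0.12 to 0.063 with 1 array left out, Tyk2 from -0.083 to 0.24, and Crebbp from -0.11 to 0.042, with 0.046 after quantile normalization. The causes were not tested. The replicate numbers are not said to pair the samples. Same-numbered arrays had correlations of deviations from -0.018 to 0.0059, which cannot show whether cultures were prepared together. With the replicate number as a block Cish passed the threshold (0.51, adjusted p = 0.023), so 4 of the 10 genes rose, and the calls of the other 9 kept their side. The block also ended the call of Ptpn1 (adjusted p = 0.080) and gave one to Parp14 (adjusted p = 0.039). With the block the sign-flip test of the pairs, whose smallest p is 0.12, gave shifts of 0.88, 1.84 and 1.12 for Il2rg minus Il13ra1, Socs1 minus Socs3 and Socs1 minus Cish (exact permutation, adjusted p = 0.25 each).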
